A study of Mus musculus with 20 samples.

Results

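Potassium channel genes were taken as the genes whose symbol starts with Kcn, from the annotated transcripts listed in the tables of the wild-type (WT) libraries or of the Ang II libraries labelled KO, with the transcripts of a gene summed. There were 39 such genes of 15346 named genes listed, and GENCODE M21 annotates 99 Kcn genes. The 39 are those with a named transcript listed here. Of 49773 transcripts listed for WT, 32618 were annotated, and of 49714 listed for KO Ang II, 32908 were. The others carry assembled names with no gene name and were left out. Whether they hold Kcn transcripts was not tested. A transcript in both tables was present for 36 of them, and 25 had a mean of at least 1 FPKM (fragments per kilobase of transcript, adjusted for sequencing depth) and entered the tests, which ran over 12645 genes. Kcnh1, Kcnj10 and Kcnt1 had transcripts in the KO Ang II table alone and were not compared. The other 11 compared genes lay under that mean.

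RNA of the mouse abdominal aorta was sequenced in 20 libraries, each from 1 animal by its title, in 4 groups of 5. The groups were mice labelled KO that received angiotensin II, written Ang II here, at a dose of 500 ng per kg and minute, WT mice given the same dose, mice labelled KO given saline and WT mice given saline. The series title names DAPK1, a calcium- and calmodulin-dependent kinase. The labels give no strain, age, sex, length of infusion or knockout allele. Values per library are given in the order KOAng_II402, KOAngII537, KOAngII560, KOAngII612 and KOAngII628 for KO Ang II, WTAng_II519, WTAng_II536, WTAngII568, WTAngII580 and WTAngII581 for WT Ang II, and WTNS_369, WTNS_373, WTNS_523, WTNS_547 and WTNS_550 for WT saline, by their titles. The KO saline table lists 2025 transcripts, so this group enters at the level of single transcripts only, and 1 description field calls its libraries WT where the title and genotype call them KO.

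Dapk1 did not check the label: it stood at 4.997 to 13.8 FPKM in KO Ang II, 3.96 to 19.9 FPKM in WT Ang II and 9.48 to 15.4 FPKM in WT saline. Depth read back from the FPKM steps was 58.96 to 74.44 megareads over these 15 libraries, and the tested Kcn genes had a median of 2 to 12918 reads per library. Smooth muscle markers summed to 5564 to 10128 FPKM in KO Ang II, 6970 to 14503 FPKM in WT Ang II and 5744 to 12885 FPKM in WT saline, with all 7 markers listed. The same libraries held markers of other cell types: brown adipocyte markers summed to 145 to 3208 FPKM and sympathetic neuron markers to 31.8 to 1106 FPKM over the 15. In RNA of whole tissue, fewer cells of a type and less RNA per cell cannot be told apart. Intestinal epithelium markers summed to over 10 FPKM in 7 libraries, all 5 of KO Ang II and 2 of WT Ang II.

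Potassium channels are membrane proteins that let potassium leave the cell and so hold the membrane potential negative. In arterial smooth muscle a more negative potential keeps voltage-gated calcium channels closed and the vessel relaxed, and Ang II is known to constrict arteries in part by closing potassium channels. Pore-forming subunits fall into voltage-gated, inward rectifier, 2-pore domain and calcium- or sodium-activated families, and auxiliary subunits change their gating or traffic. Of the listed genes, 16 were voltage-gated pore subunits (10 tested), 6 inward rectifiers (3 tested), 5 of the 2-pore family (2 tested), 1 the large-conductance calcium-activated (BK) pore (tested), 2 small or intermediate conductance pores (2 tested), 2 sodium-activated pores (1 tested) and 7 auxiliary subunits (6 tested).

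The pore-forming members, sorted from auxiliary members by symbol, share a sequence. It is given as a description and not as a test of the symbol rule. Codons for the selectivity-filter signature (threonine or serine, then valine, isoleucine or leucine, then glycine, then tyrosine, phenylalanine or leucine, then glycine) were present in 31 of 31 pore-forming members with a listed coding transcript, in 0 of 7 auxiliary members and in 297 of 21877 protein-coding genes (1.36%). Each stretch lies in coding exons. The stretches below show it for members of the pore families described in the results, in the coding strand from GENCODE M21 on GRCm38, with the 15 signature bases in capitals and 15 bases on each side. Kcnma1 lies at chr14:23528398-23528442 (minus strand), Kcnj8 at chr6:142566433-142566477 (minus), Kcna5 at chr6:126533730-126533774 (minus), Kcns3 at chr12:11091560-11091604 (minus), Kcnh2 at chr5:24325540-24325584 (minus), Kcnn4 at chr7:24379183-24379227 (plus) and the second Kcnk3 stretch at chr5:30622187-30622231 (plus). The first Kcnk3 stretch spans an exon junction.
Kcnma1: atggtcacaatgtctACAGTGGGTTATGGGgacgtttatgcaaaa
Kcna5: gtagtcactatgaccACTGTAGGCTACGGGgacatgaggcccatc
Kcns3: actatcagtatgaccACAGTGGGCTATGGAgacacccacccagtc
Kcnh2: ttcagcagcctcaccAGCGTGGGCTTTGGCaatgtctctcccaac
Kcnn4: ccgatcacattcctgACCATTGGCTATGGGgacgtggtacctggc
Kcnj8: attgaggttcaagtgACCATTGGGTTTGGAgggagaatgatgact
Kcnk3, first: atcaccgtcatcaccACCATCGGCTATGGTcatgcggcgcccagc
Kcnk3, second: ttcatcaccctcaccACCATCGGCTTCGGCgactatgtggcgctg
The 2-pore channel Kcnk3 carries the signature 2 times in 1 chain, and the other pores shown carry it once per chain. In the stretches shown, Kcnh2, Kcnj8 and the second copy of Kcnk3 have a phenylalanine codon where the others have tyrosine.

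Levels of the channel genes spanned a wide range. Kcnmb1, Kcnma1, Kcnj8 and Kcna5, known from arterial smooth muscle, were among the 7 highest. Some other channels known from arteries were low, such as Kcnj2, Kcnq1 and Kcnc4 with means of 0.599, 0.858 and 1.76 FPKM. The mean over 15 libraries was 42.8 FPKM for Kcnmb1, 28.0 for Kcnk3, 13.2 for Kcnma1, 10.1 for Kcnj8, 9.21 for Kcne4, 8.20 for Kcnh2 and 5.63 for Kcna5, and the other 18 tested genes lay between 1.04 and 3.14 FPKM. The median of the tested Kcn genes was 1.93 FPKM, against 6.75 FPKM over all tested genes.

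**Figure D1:**
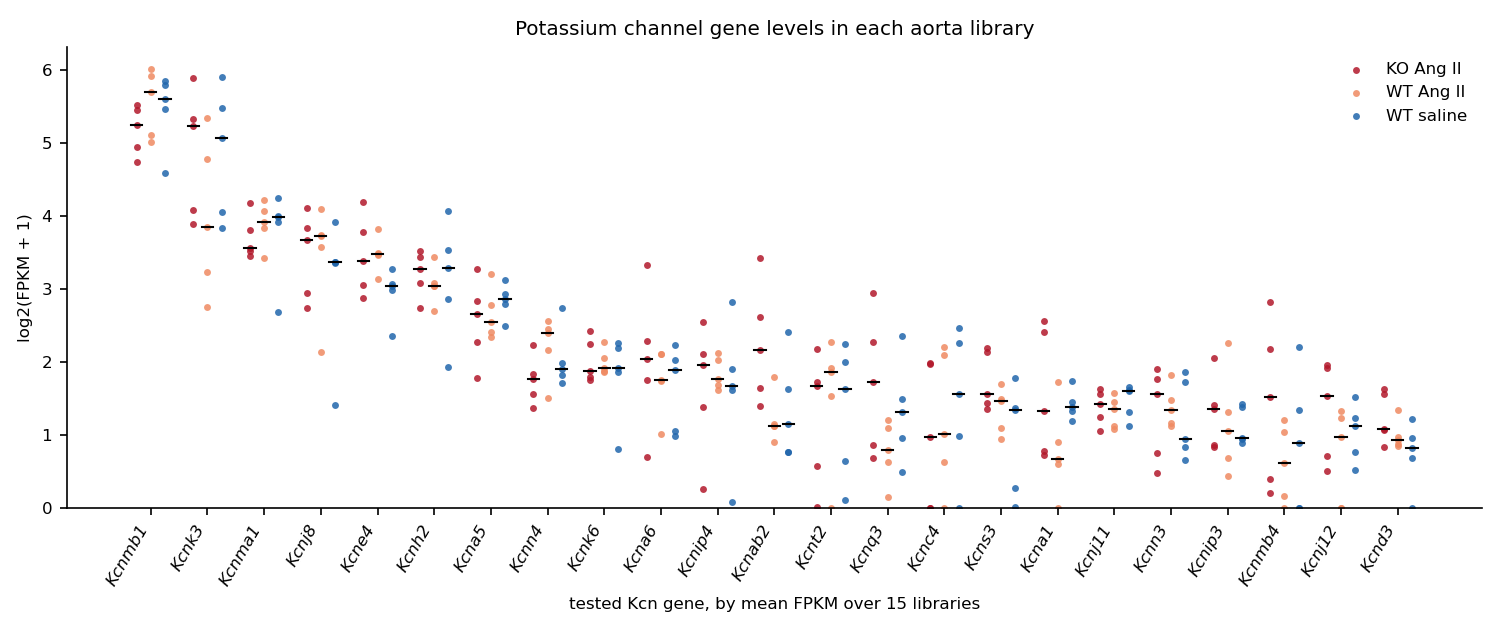
Level of 23 of the 25 tested potassium channel genes as log2(FPKM + 1), ordered by mean FPKM over 15 libraries; each point is 1 library (5 per group: KO Ang II, WT Ang II, WT saline) and each black bar the group median. Kcnmb1, with a mean of 42.8 FPKM, is at the left, the groups overlap for every gene, and several low genes such as Kcnc4 are at 0 in some libraries and at several FPKM in others.

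No tested channel gene passed the test in any of the 3 comparisons. In limma on log2(FPKM + 1) with Benjamini-Hochberg adjustment over all genes, 0 of 25 Kcn genes were called for KO Ang II against WT Ang II (0% of all tested genes called), 0 of 25 for KO Ang II against WT saline (0.103% of all) and 0 of 25 for WT Ang II against WT saline (0% of all). An unadjusted p under 0.05 was found for 2 of 25 in the first (7.94% of all tested genes), 4 of 25 in the second (8.37% of all) and 1 of 25 in the third (4.88% of all). With voom on recovered reads the calls were also 0 in each, with 2, 3 and 1 genes at an unadjusted p under 0.05. The smallest adjusted p of a Kcn gene by limma was 0.622, 0.532 and 0.941 in that order. The ranges of the 2 groups did not overlap for 0 of 25 Kcn genes in each comparison, while this held for 1.12%, 1.83% and 0.996% of all tested genes.

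Differences were spread about 0. For KO Ang II against WT Ang II, 14 of 25 Kcn genes had a difference above 0 (48.6% of all tested genes did) and their median difference was 0.02 (log2), against -0.01 over all genes. For KO Ang II against WT saline, 17 of 25 were above 0 (52.7% of all) with a median of 0.14, against 0.02 over all genes. For WT Ang II against WT saline, 15 of 25 were above 0 (52.6% of all) with a median of 0.11, against 0.01 over all genes. The comparisons share groups of libraries and are not independent. The 95% interval of the difference lay within 1 unit of 0 for 12, 11 and 12 of the 25 genes in these 3 comparisons. For the rest a difference of that size was not excluded. The unit is of log2(FPKM + 1), which understates changes of low genes. A larger fold change of FPKM can therefore lie within 1 unit for low genes. The sign of the median difference turned when some libraries were left out: for WT Ang II against WT saline it was -0.12 without WTNS_373, and for KO Ang II against WT saline it was -0.18 without the 4 libraries highest in sympathetic neuron markers (KOAngII537, KOAng_II402, KOAngII560 and WTNS_523), which leaves 2 KO Ang II libraries.

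**Figure D2:**
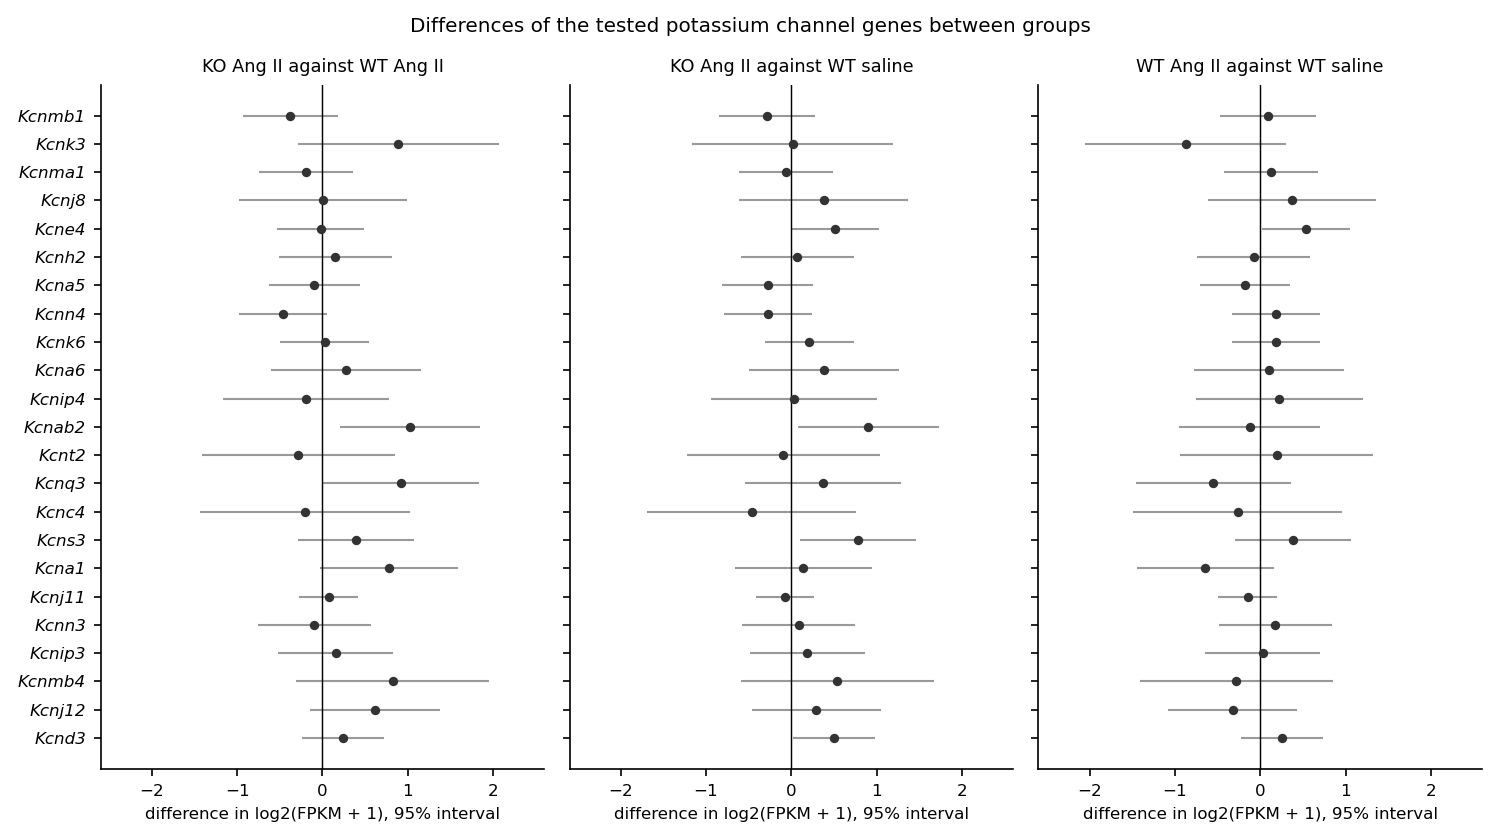
Difference in log2(FPKM + 1) of 23 of the 25 tested potassium channel genes, with its 95% interval from limma, for KO Ang II against WT Ang II, KO Ang II against WT saline and WT Ang II against WT saline (5 libraries a group). Points lie on both sides of 0 in each panel, and none passed an adjusted p of 0.05.

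The BK channel, opened by voltage and calcium, is formed by the pore subunit Kcnma1 and, in smooth muscle, the auxiliary beta1 subunit Kcnmb1, which raises its calcium sensitivity. Kcnmb1 was at 29.7, 25.7, 42.5, 44.6 and 36.7 FPKM in KO Ang II, 63.4, 33.5, 59.3, 31.2 and 50.9 FPKM in WT Ang II, and 43.0, 23.1, 54.4, 56.3 and 47.3 FPKM in WT saline. The KO Ang II libraries all lay under 45 FPKM, and 3 of 5 WT Ang II and 3 of 5 WT saline libraries lay above that level, but the groups overlapped. In all values of this kind ± gives the SE. The difference was -0.38 ± 0.26 for KO Ang II against WT Ang II (limma adjusted p = 0.669), -0.28 ± 0.26 for KO Ang II against WT saline (limma adjusted p = 0.849) and 0.09 ± 0.26 for WT Ang II against WT saline (adjusted p = 0.969).

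Kcnmb1 followed the smooth muscle markers from library to library. Its 5 highest libraries were the 5 highest in the summed smooth muscle markers (Acta2, Myh11, Tagln, Cnn1, Lmod1, Smtn and Des), which held for 1 of 25 Kcn genes and for 0.712% of all tested genes. Per 1000 FPKM of those markers, Kcnmb1 stood at 3.64 to 5.08 FPKM in KO Ang II, 3.55 to 4.48 FPKM in WT Ang II and 4.02 to 5.39 FPKM in WT saline. The highest library exceeded the lowest by 1.52 times on this ratio and by 2.75 times in Kcnmb1 itself. With marker means of skeletal muscle, brown adipocytes and sympathetic neurons as covariates, the difference for KO Ang II against WT Ang II was 0.00, and the part of smooth muscle content in it was not tested.

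Kcnma1, the BK pore, was at 9.86, 12.9, 17.0, 10.8 and 10.5 FPKM in KO Ang II, 15.8, 13.3, 17.6, 9.75 and 14.0 FPKM in WT Ang II, and 14.0, 5.42, 14.8, 17.9 and 14.997 FPKM in WT saline. The lowest value was in WTNS_373, which was also the lowest of its group in Kcnmb1 and in smooth muscle markers. Differences of Kcnma1 were -0.19 ± 0.26, -0.06 ± 0.26 and 0.13 ± 0.26 for KO Ang II against WT Ang II, KO Ang II against WT saline and WT Ang II against WT saline (limma adjusted p = 0.826, 0.970 and 0.961). The ratio of Kcnmb1 to Kcnma1, both per length, was 1.99 to 4.14 in KO Ang II, 2.52 to 4.02 in WT Ang II and 3.07 to 4.26 in WT saline. The neuronal beta4 subunit Kcnmb4 was at 0.149 to 6.07 FPKM in KO Ang II, 0 to 1.30 FPKM in WT Ang II and 0 to 3.58 FPKM in WT saline.

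Kcnma1 was the member with the most listed transcripts, 8 in these tables, and 1 transcript gave the only call. No single transcript made up over 22.2% of the gene's summed FPKM. ENSMUST00000145596, of 12094 bases, is among the 1015 transcripts listed for all 4 groups. It was at 1.93, 2.27, 1.62, 1.68 and 1.82 FPKM in KO Ang II and at 0.03, 0.49, 0.02, 0.90 and 0.04 FPKM in KO saline (KONS_387, KONS_412, KONS_555, KONS_608 and KONS_627). Those groups did not overlap, as held for 15.1% of the 1015 transcripts. It was higher in KO Ang II by 1.19 ± 0.34 on the log2 scale (limma over 1015 transcripts, adjusted p = 0.0276), in a comparison that called 200 of 1015 (19.7%).

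The same transcript was at 3.89, 1.96, 1.29, 0.17 and 1.26 FPKM in WT Ang II and at 1.00, 0.76, 0.30, 3.60 and 1.33 FPKM in WT saline, so the WT groups spread over the whole range. KO saline against WT saline differed by -0.80 ± 0.34 (limma adjusted p = 0.201, with 27 of 1015 called, 2.66%), and the test of the Ang II difference in KO minus that in WT gave 1.02 ± 0.49 (adjusted p = 0.133, with 4.93% called). The call for KO Ang II against KO saline was lost without KONS_387 (adjusted p = 0.0561) or KONS_627 (adjusted p = 0.0510). How transcripts were chosen for the KO saline table is not given in the sources used here, and the summed Kcnma1 level of that group was not analysed here.

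**Figure D3:**
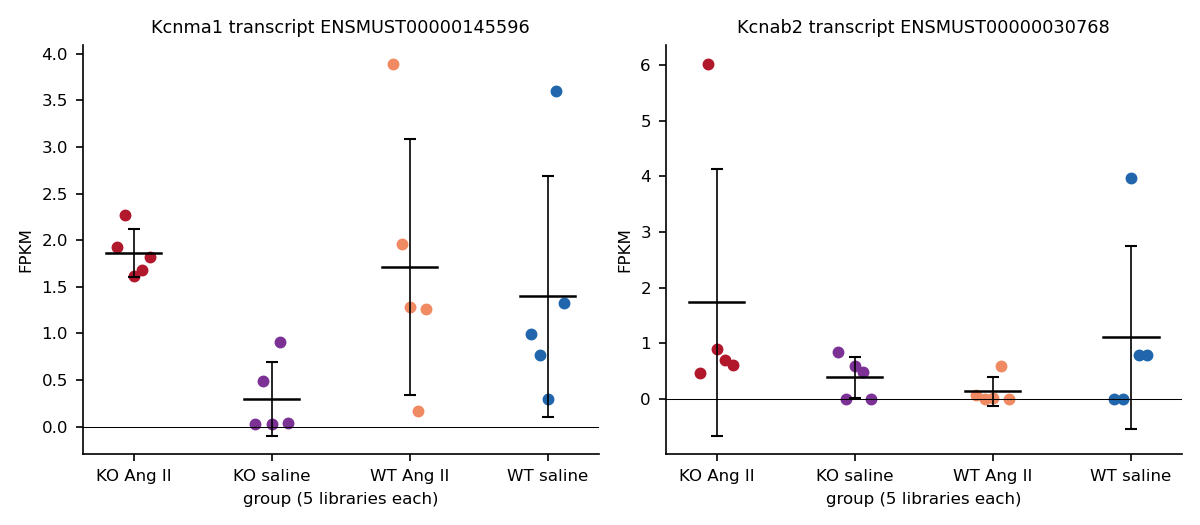
FPKM of Kcnma1 transcript ENSMUST00000145596 and Kcnab2 transcript ENSMUST00000030768 in KO Ang II, KO saline, WT Ang II and WT saline; points are the 5 libraries of each group, with the mean (wide bar) and SD (error bar). The 5 KO Ang II values of the Kcnma1 transcript, from 1.62 to 2.27 FPKM, lie above all 5 of KO saline, while the WT groups overlap both; the Kcnab2 transcript has 1 high library in KO Ang II and 1 in WT saline.

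Kcnj8 encodes the Kir6.1 pore of the vascular ATP-sensitive channel, which relaxes arteries when it opens. It was at 5.65, 11.6, 16.3, 13.2 and 6.67 FPKM in KO Ang II, 12.3, 16.0, 10.9, 3.38 and 12.1 FPKM in WT Ang II, and 9.34, 9.18, 14.0, 9.26 and 1.64 FPKM in WT saline. Every group had a library at least 2 times above another, and the groups overlapped. Its differences were 0.01 ± 0.46, 0.38 ± 0.46 and 0.37 ± 0.46 (limma adjusted p = 0.998, 0.884 and 0.949) in the order used for Kcnma1. Kcnj11, the Kir6.2 pore known from pancreas and heart, stayed between 1.07 and 2.14 FPKM in all 15 libraries. Abcc9, the SUR2 subunit that pairs with Kcnj8, ranged from 1.64 to 18.1 FPKM in KO Ang II, 1.68 to 20.4 FPKM in WT Ang II and 0.22 to 19.3 FPKM in WT saline.

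Among the 2-pore channels, which carry background potassium current, Kcnk3 (TASK-1, a pH-sensitive channel also known from brown fat) had the widest spread of the abundant genes. It was at 39.0, 36.4, 15.9, 13.8 and 58.3 FPKM in KO Ang II, 5.75, 26.4, 13.3, 39.6 and 8.39 FPKM in WT Ang II, and 43.5, 58.9, 15.5, 13.2 and 32.5 FPKM in WT saline. The lowest 2 libraries were both of WT Ang II, but each group held at least 1 library above 35 FPKM. The difference was 0.89 ± 0.55 for KO Ang II against WT Ang II (limma adjusted p = 0.651), 0.01 ± 0.55 for KO Ang II against WT saline (limma adjusted p = 0.998) and -0.87 ± 0.55 for WT Ang II against WT saline (adjusted p = 0.941).

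Kcnk3 followed the brown adipocyte markers (Ucp1, Cidea, Elovl3, Cpt1b, Cox7a1, Cox8b and Dio2). Its 5 highest libraries were the 5 highest in those markers, which held for 1 of 25 Kcn genes and for 0.672% of all tested genes. The summed markers had a median of 1471 FPKM in KO Ang II, 544 FPKM in WT Ang II and 1701 FPKM in WT saline. Kcnk3 varied 10.2 times over the 15 libraries, and 2.82 times when expressed per FPKM of the markers. With the 3 marker means as covariates the difference was 0.39 ± 0.26 for KO Ang II against WT Ang II. For WT Ang II against WT saline it was then 0.08. Kcnk3 also shared 4 of its 5 highest libraries with white adipocyte markers (9.62% of all tested genes shared 4 or 5). The part of either adipocyte list in the Kcnk3 differences was not tested. Kcnk6 (TWIK-2), the other tested 2-pore gene, was at 2.37 to 4.33 FPKM in KO Ang II, 2.63 to 3.81 FPKM in WT Ang II and 0.745 to 3.75 FPKM in WT saline.

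**Figure D4:**
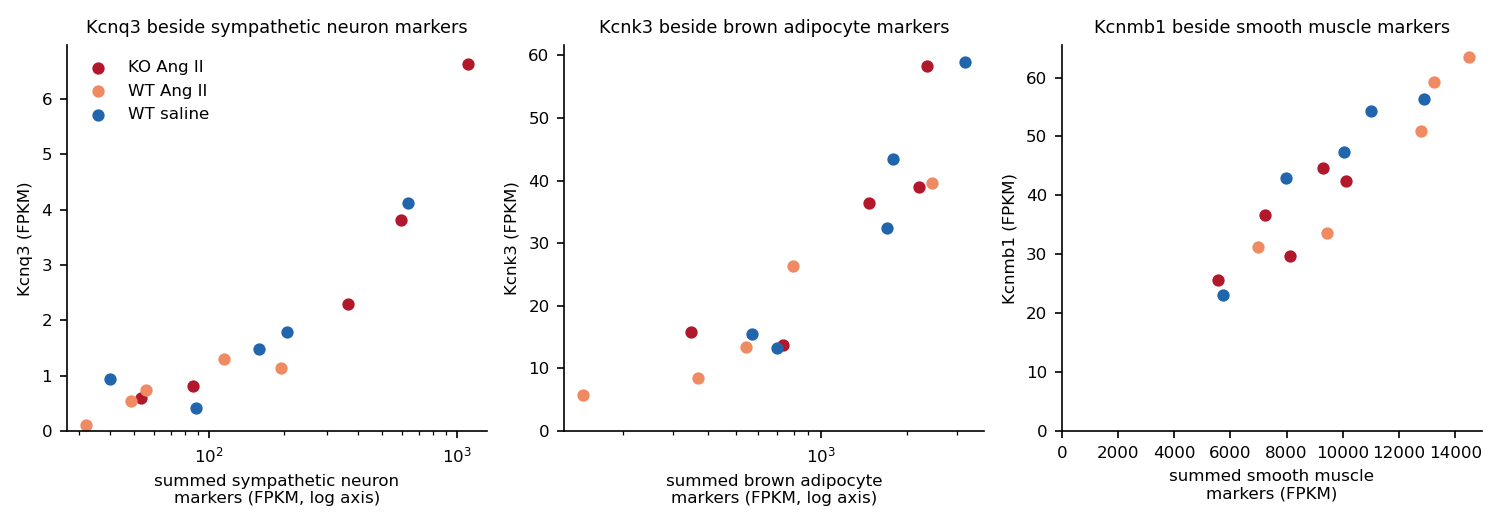
The channel genes Kcnq3, Kcnk3 and Kcnmb1 beside the summed FPKM of a cell type marker list, 1 point per library (5 each of KO Ang II, WT Ang II and WT saline): the first with sympathetic neuron markers and the next with brown adipocyte markers (log horizontal axes), and the last with smooth muscle markers (linear axes). In each panel the 5 libraries highest in the markers are the 5 highest in the gene.

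Voltage-gated pore subunits open on depolarisation and limit constriction. Kcna5 (Kv1.5), a main Kv1 pore of arterial smooth muscle, was at 5.27, 6.11, 8.65, 2.41 and 3.81 FPKM in KO Ang II, 4.85, 8.21, 5.83, 4.07 and 4.29 FPKM in WT Ang II, and 7.67, 6.57, 5.92, 4.59 and 6.23 FPKM in WT saline. The groups overlapped, with the lowest 2 values in KO Ang II. Differences were -0.10 ± 0.25, -0.28 ± 0.25 and -0.18 ± 0.25 for KO Ang II against WT Ang II, KO Ang II against WT saline and WT Ang II against WT saline (limma adjusted p = 0.925, 0.846 and 0.950). Kcnh2, the ERG1 pore that carries the rapid delayed rectifier of the heart, was at 5.63 to 10.4 FPKM in KO Ang II, 5.44 to 9.84 FPKM in WT Ang II and 2.82 to 15.8 FPKM in WT saline.

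Kcns3 (Kv9.3), a silent subunit that changes the currents of other voltage-gated pores, was at 1.94, 3.38, 1.55, 1.69 and 3.55 FPKM in KO Ang II, 1.76, 2.25, 1.14, 0.92 and 1.80 FPKM in WT Ang II, and 0.21, 2.42, 1.57, 1.52 and 0.01 FPKM in WT saline. It stood above 1.5 FPKM in every KO Ang II library. In WT saline it was at 0.21 FPKM in WTNS_369 and 0.01 FPKM in WTNS_550, and above 1.5 FPKM in the others. Its difference for KO Ang II against WT saline was 0.78 ± 0.32 (limma adjusted p = 0.532), the smallest p of a Kcn gene in that comparison.

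Kcnd3 (Kv4.3), an A-type pore, was at 1.10, 1.96, 2.07, 0.78 and 1.08 FPKM in KO Ang II, 0.83, 0.90, 1.52, 0.95 and 0.80 FPKM in WT Ang II, and 0.76, 0.00, 0.60, 1.32 and 0.93 FPKM in WT saline. These sums include transcript ENSMUST00000098761, which is listed for KO Ang II alone and so counted as 0 in every WT library. Without it, Kcnd3 was at 0.92, 0, 1.97, 0 and 1.06 FPKM in KO Ang II, with the WT values unchanged. It then lay under the mean of 1 FPKM needed for the test. From the full sums, the difference for KO Ang II against WT saline was 0.50 ± 0.22 (limma adjusted p = 0.585). It was 0.11 with unlisted transcripts set to 0.5 FPKM in place of 0.

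Kcnc4 (Kv3.4), a fast voltage-gated pore, was at 0 in some libraries, with 2.96, 2.89, 0, 0 and 0.96 FPKM in KO Ang II, 3.60, 0, 3.27, 1.01 and 0.54 FPKM in WT Ang II, and 0, 0.97, 3.77, 1.94 and 4.49 FPKM in WT saline. No group was high throughout, and the gene has 1 listed transcript.

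The calcium-activated pores of endothelium are the intermediate channel Kcnn4 and the small channel Kcnn3, which start endothelium-dependent relaxation. Kcnn4 was at 2.40, 2.57, 3.71, 1.57 and 1.94 FPKM in KO Ang II, 4.89, 4.46, 4.23, 1.83 and 3.46 FPKM in WT Ang II, and 2.94, 5.68, 2.71, 2.51 and 2.27 FPKM in WT saline. Of WT Ang II, 3 of 5 libraries exceeded every KO Ang II library. The difference for KO Ang II against WT Ang II was -0.46 ± 0.24 (limma adjusted p = 0.633), and -0.08 within the 7 libraries with intestinal markers over 10 FPKM. Kcnn3 was at 0.394 to 2.73 FPKM in KO Ang II, 1.18 to 2.51 FPKM in WT Ang II and 0.578 to 2.62 FPKM in WT saline. Endothelial markers summed to 141 to 306 FPKM in KO Ang II, 214 to 586 FPKM in WT Ang II and 172 to 383 FPKM in WT saline, with all 8 listed; 4 of the 5 highest Kcnn4 libraries were among the 5 highest in those markers (2.29% of all tested genes shared 4 or 5). The same count, 4 of 5, was shared with fibroblast markers (3.5% of all tested genes shared 4 or 5), and the part of either list in the result was not tested.

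Among auxiliary subunits, Kcne4, which inhibits or modulates Kv1 and Kv7 pores in expression systems, was at 7.30, 6.30, 12.8, 17.2 and 9.37 FPKM in KO Ang II, 10.04, 13.1, 10.2, 7.75 and 10.1 FPKM in WT Ang II, and 6.93, 4.09, 7.17, 8.60 and 7.36 FPKM in WT saline. Only 1 WT Ang II library, WTAngII580, lay below the highest WT saline library. The difference was 0.53 ± 0.24 for WT Ang II against WT saline (limma adjusted p = 0.941), the smallest p of a Kcn gene there, and 0.51 ± 0.24 for KO Ang II against WT saline (limma adjusted p = 0.594). Both comparisons use the same WT saline libraries. With the 3 marker means as covariates the difference for WT Ang II against WT saline was 0.20. Fibroblast markers summed to 962 to 2338 FPKM in KO Ang II, 1208 to 2315 FPKM in WT Ang II and 1291 to 1546 FPKM in WT saline, with all 7 listed. Of the 5 highest Kcne4 libraries, 4 were among the 5 highest in those markers (3.5% of all tested genes shared 4 or 5). The other was the highest in Kcne4, KOAngII612 at 17.2 FPKM, which had 977 FPKM of the markers, near the lowest library. The part of the fibroblast markers in the result was not tested.

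Kcnab2, the cytoplasmic Kvbeta2 subunit of Kv1 channels and abundant in brain, gave the smallest p for KO Ang II against WT Ang II. It was at 5.12, 9.74, 3.46, 2.10 and 1.63 FPKM in KO Ang II, 0.87, 1.16, 1.17, 2.46 and 1.22 FPKM in WT Ang II, and 0.70, 0.69, 4.31, 1.21 and 2.08 FPKM in WT saline. The highest values were in KOAngII537, KOAng_II402 and WTNS_523. These sums include transcript ENSMUST00000161844, which is listed for KO Ang II alone and so counted as 0 in every WT library. Without it, Kcnab2 was at 3.816, 7.746 and 3.299 FPKM in KOAng_II402, KOAngII537 and KOAngII560, and the other libraries were unchanged. The Kcnab2 difference, from the full sums, was 1.03 ± 0.38 against WT Ang II (limma adjusted p = 0.622) and 0.90 ± 0.38 against WT saline (adjusted p = 0.552). Its transcript ENSMUST00000030768 differed by 0.72 ± 0.41 between KO Ang II and KO saline (limma over 1015 transcripts, adjusted p = 0.118).

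Kcnab2 was 1 of 4 tested channel genes that stood highest in the same 4 libraries. Those were KOAngII537, WTNS_523, KOAng_II402 and KOAngII560, which had the highest summed sympathetic neuron markers (Th, Dbh, Npy, Chga, Snap25, Stmn2, Phox2a, Elavl4, Uchl1 and Prph among them) at 1106, 632, 593 and 363 FPKM; the next library, WTNS_550, had 205 FPKM. Summed by group, these markers were at 53.2 to 1106 FPKM in KO Ang II, 31.8 to 195 FPKM in WT Ang II and 39.8 to 632 FPKM in WT saline, and all 11 were listed. The pattern was noticed in the values and is given as a description. With these neuron markers, Kcnq3 and Kcnmb4 shared all 5 of their highest 5 libraries, and Kcna1, Kcnab2 and Kcnj12 shared 4. Kcna1, Kcnab2, Kcnip4, Kcnj12, Kcnmb4 and Kcnq3 shared 4 of 5 with Schwann cell markers, which summed to 43.0 to 262 FPKM over the 15 libraries. Of all tested genes, 4.78% and 5.09% shared 4 or 5 with the neuron and Schwann cell lists. The part of either list in the pattern was not tested.

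Kcnq3, a pore subunit of the M-channel of sympathetic neurons, was at 3.81, 6.64, 2.29, 0.60 and 0.81 FPKM in KO Ang II, 0.54, 0.11, 0.74, 1.13 and 1.30 FPKM in WT Ang II, and 0.93, 0.41, 4.12, 1.48 and 1.80 FPKM in WT saline. The 4 libraries named above were its 4 highest. Kcnq3 varied 62.6 times over the 15 libraries, and 7.03 times when expressed per FPKM of the sympathetic neuron markers. The difference was 0.92 ± 0.43 for KO Ang II against WT Ang II (limma adjusted p = 0.622). Kcna1 (Kv1.1), an axonal Kv1 pore, was at 4.29, 4.88, 1.504, 0.66 and 0.71 FPKM in KO Ang II, 0, 0.51, 0.86, 0.58 and 2.29 FPKM in WT Ang II, and 1.28, 1.49, 1.73, 1.61 and 2.32 FPKM in WT saline. It was highest in KOAngII537 and KOAng_II402, and WT saline lay in a narrow band. Its difference was 0.78 ± 0.38 for KO Ang II against WT Ang II (limma adjusted p = 0.622) and -0.64 ± 0.38 for WT Ang II against WT saline (adjusted p = 0.941).

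All 4 of these libraries stood above all 11 others for 4 of the 25 tested Kcn genes (16%), and for 2.31% of all tested genes. The 4 genes were Kcnq3, Kcnmb4, Kcnab2 and Kcnj12. Kcnmb4 was at 1.86 to 6.07 FPKM in the 4 and 0 to 1.52 FPKM in the others. Kcnj12 (Kir2.2), an inward rectifier of excitable cells, was at 1.87 to 2.86 FPKM in the 4 and 0 to 1.495 FPKM in the others. Other members known from neurons did not separate them: Kcna1 reached 2.32 FPKM in the other 11 libraries, above 2 of the 4, and Kcna2, an axonal Kv1 pore, was at 0.61 to 1.52 FPKM in the 4 and 0 to 2.13 FPKM in the others. Kcnip4, an auxiliary subunit of Kv4 pores, was at 2.87 to 6.06 FPKM in the 4 and 0.0582 to 3.33 FPKM in the others.

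The 3 members listed for KO Ang II alone are known from neurons or glia. Kcnt1, a sodium-activated pore of neurons, had 2.82, 3.20, 1.12, 0.07 and 0.14 FPKM over its 2 listed transcripts, both annotated as retained introns with no coding transcript listed. Kcnj10 (Kir4.1), the inward rectifier of glial cells, had 1.24, 1.48, 0.87, 0.03 and 0.26 FPKM. Kcnh1 (EAG1), a brain pore, had 0.92, 1.69, 0, 0 and 0 FPKM. All 3 were highest in KOAngII537 and then KOAng_II402, which also led KO Ang II in neuron markers. Transcripts listed for KO Ang II alone have a KO Ang II mean of at least 0.5 FPKM. The 3 genes were thus listed through the values shown, and Kcnh1, with a mean of 0.523 FPKM, through those 2 libraries only. The WT tables list no named transcript of these 3 genes. Each transcript in the WT tables has a mean of at least 0.5 FPKM in a WT group, so a WT level under that would not be listed.

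The remaining members were low. Kcna6, Kcnip3, Kcnip4, Kcnt2, Kcnj11, Kcnj12 and Kcnmb4 were also tested, with means of 1.19 to 2.85 FPKM. The 11 compared genes under a mean of 1 FPKM included Kcna2, Kcnd1, Kcne3, Kcnj2, Kcnj15, Kcnk1, Kcnk5, Kcnk13, Kcnq1 and Kcnq5. Kcnj2 (Kir2.1), the strong inward rectifier of small arteries and endothelium, was at 0.413 to 1.03 FPKM in KO Ang II, 0.439 to 0.80 FPKM in WT Ang II and 0.408 to 0.693 FPKM in WT saline.

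Genes that work with these channels were also examined as 2 lists. Of 18 partners, 7 were tested and 0 were called by limma in any comparison, where 0%, 0.103% and 0% of all tested genes were called. Trpv4, a calcium-permeable channel that activates endothelial and BK potassium channels, was at 5.19 to 7.44 FPKM in KO Ang II, 7.35 to 12.8 FPKM in WT Ang II and 3.40 to 7.97 FPKM in WT saline. Its difference was -0.48 ± 0.19 for KO Ang II against WT Ang II (limma adjusted p = 0.622) and 0.57 ± 0.19 for WT Ang II against WT saline (adjusted p = 0.940). Of 10 potassium pumps and cotransporters, 10 were tested and 0 called, against the same shares of all genes. Atp1b2, a beta subunit of the sodium pump, was at 7.30, 8.84, 11.5, 1.52 and 7.40 FPKM in KO Ang II and at 25.7, 15.4, 12.8, 15.9 and 23.1 FPKM in WT Ang II, without overlap (as held for 1.12% of all tested genes), and at 8.36, 6.38, 12.9, 27.1 and 23.9 FPKM in WT saline. Its difference was -1.37 ± 0.44 for KO Ang II against WT Ang II (limma adjusted p = 0.607).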

How the data were processed

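Per the labels' protocols, TRIzol was used to extract the RNA, and 1 µg went into each library (NEBNext Ultra RNA kit). The submitters' processing notes name bcl2fastq, FastQC and fastp and the build mm10. For aligner, assembler and quantifier, the name is not given in the sources used here. In 1 table per library, the authors deposited FPKM, that is fragments counted per kilobase and adjusted for depth, for each transcript. Rows with assembled names carry no gene name and were left out. Per the files, WT libraries share one list of transcripts and KO Ang II libraries another; a transcript not in a list was set to 0.

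Annotated transcripts were named with GENCODE M21 and summed per gene. Genes with a transcript in both lists and a mean of at least 1 FPKM over 15 libraries were tested with limma 3.58.1 (R 4.3.3), with trend and robust options, on log2(FPKM + 1). Fold changes on this scale understate changes of low genes. P-values were adjusted over 12645 genes (threshold 0.05), and, for KO saline, over 1015 transcripts. The gene fit used all 15 libraries of KO Ang II, WT Ang II and WT saline, and the transcript fit used all 20. FPKM values were whole multiples of 1 read: 97.9 to 99.1% of values under 50 reads lay within 0.05 of a whole read, and 1 read on 1 kb was worth 0.0134 to 0.017 FPKM. The fit was tested on simulated data. Replicates are separate animals by their titles. Full values were planned for tested Kcn genes of 4 kinds. These were genes past the test, the 4 with the smallest p per comparison, the 6 with the highest mean and those on a list of arterial channels. Of these, Kcnh2, Kcnk6 and Kcnn3 are given by range only. The members, gene lists and marker lists were chosen with earlier results of these data known. Sequences came from the GENCODE M21 annotation of GRCm38. Some members and 1 marker are not reported here by name. Alternatives are given at the end.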

Additional observations from a re-analysis of the deposited data

Results flagged for a closer look

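In a group of 5, the gap of 1 library to its nearest neighbour exceeded 0.71 of the group's range for 3 of 51 groups examined, where chance gives about 1 in 20. Kcnab2 was at 2.46 FPKM in WT Ang II library WTAngII580, with the other 4 at 0.872 to 1.22 FPKM. Kcnd3 was at 1.52 FPKM in WT Ang II library WTAngII568, with the others at 0.803 to 0.952 FPKM. Kcnn4 was at 5.68 FPKM in WT saline library WTNS_373, with the others at 2.27 to 2.94 FPKM.

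Transcripts listed for a single group lie outside the comparisons and were seen above the level of 3 reads. In KO Ang II, Kcnh1 ENSMUST00000110844 passed it in 2 of 5 libraries (median 0, highest 1.69 FPKM), Kcnj10 ENSMUST00000056136 in 5 of 5 (median 0.871 FPKM), and Kcnt1 ENSMUST00000131529 and ENSMUST00000199269 each in 4 of 5 (medians 0.896 and 0.225 FPKM). In KO saline, Kcnma1 ENSMUST00000112423, of 3664 bases, passed it in 5 of 5, at 0.0802 to 1.28 FPKM with a median of 0.787 FPKM.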

How the results depend on the processing

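No paired analysis was possible because the replicate numbers are animal numbers and no number is shared between groups. The count of Kcn genes called by limma was 0 in all 3 comparisons under every alternative run, with a lowest adjusted p of 0.131 and 0.164 for KO Ang II against each WT group in turn, Ang II first, both with sample quality weights, and 0.527 for WT Ang II against WT saline. All genes called for KO Ang II against WT saline numbered 13, against 30 with sample quality weights, 1 with marker covariates and 1 without the 4 libraries highest in sympathetic neuron markers (an alternative chosen after seeing the data, as were those on the 7 libraries with intestinal markers). Uncalled differences that changed sign follow. With marker covariates, WT Ang II against WT saline gave -0.21 for Kcnj8, 0.075 for Kcnk3, -0.11 for Kcnma1 and -0.28 for Kcnmb1, and KO Ang II against WT Ang II gave 0.0023 for Kcnmb1. Leaving out the 4 neuron-high libraries keeps 2 KO Ang II libraries and removes the 4 highest of Kcnq3 and the 2 highest of Kcna1, so a fall of those is set by the choice; KO Ang II against WT Ang II gave -0.026 for Kcna1, -0.062 for Kcnj8 and -0.00041 for Kcnq3 there, and KO Ang II against WT saline gave -0.18 for Kcnk3 and 0.0031 for Kcnmb1. Without the 7 libraries with intestinal markers, Kcna5 gave 0.0084 for WT Ang II against WT saline; with those 7 alone, KO Ang II against WT Ang II gave 0.18 for Kcna5 and 0.030 for Kcnma1. For Kcnj8, KO Ang II against WT Ang II gave -0.0020 with quantile normalization and -0.31 with sample quality weights. For Kcnma1, KO Ang II against WT saline gave 0.0026 with only transcripts listed for all 15 libraries and 0.086 with voom on recovered reads. The cause was not tested.

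Leaving out 1 library at a time, Kcnj8 ranged from -0.32 to 0.19 (KO Ang II against WT Ang II), -0.041 to 0.59 (KO Ang II against WT saline) and -0.048 to 0.70 (WT Ang II against WT saline). Kcnma1 ranged from -0.33 to 0.055 and from -0.14 to 0.25 in the last 2 of these, Kcnmb1 from -0.12 to 0.23 in the last, Kcna5 from -0.28 to 0.10 in the first and Kcnk3 from -0.24 to 0.28 in the second. The Kcnab2 transcript ranged from -0.57 to 0.0067 for KO saline against WT saline. Kcn transcripts called for KO Ang II against KO saline ranged from 0 to 1, with 0 without KONS_387 or KONS_627, and stayed at 1 with a pseudocount of 0.1 and with quantile normalization; for KO saline against WT saline the count was 0 throughout. Of the 25 tested Kcn genes, 9 had a library under 3 reads. Some of these had many reads in other libraries. Kcnt2 ran from 0 to 1427 reads (median 927) and Kcnc4 from 0 to 1104 reads (median 275). Depth was 58.96 to 74.44 megareads over the same 15 libraries. The cause of such low counts was not tested.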
